A study of Mus musculus with 15 samples.

Results

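The 57 genes described here encode the machinery that takes a mouse cell through G2 and mitosis. The list names cyclins, kinases, kinetochore proteins, motors and anaphase regulators; the rule used no measured value, though the list was drawn up with earlier results of these data known. All 57 were found among the 48440 genes of the deposited count table and all 57 passed the filter on low counts. RNA was sequenced from primary lung fibroblasts of C57BL/6 mice, kept at 3% oxygen, in 5 groups of 3 libraries. The groups were Atm+/+ cells given 10 Gy of X-rays and harvested 10 days later (labelled passage 2), Atm-/- cells at passage 8, Atm+/+ cells at passage 8, Atm-/- cells at passage 2 and Atm+/+ cells at passage 2. Atm encodes a kinase at the head of the response to broken DNA. The design names 3 strains of fibroblasts per genotype, so replicates stand for strains established from mice, whose ages are not given. No unirradiated culture with a matched 10-day wait was used here, so irradiation and the wait cannot be told apart. The 57 genes lie on 18 chromosomes, 11 of them on chromosome 2. In GRCm38, the build of the deposited counts, Mki67 lies at chr7:135689784-135716361 (minus strand), Top2a at chr11:98992943-99024189 (minus strand), Cdk1 at chr10:69335146-69352938 (minus strand), Ccnb1 at chr13:100778650-100786570 (minus strand), Plk1 at chr7:122159439-122169873 (plus strand) and Foxm1 at chr6:128362967-128376146 (plus strand). Exons of 17 members overlap those of another gene (Top2a, Plk1, Foxm1, Cdc20 and Ube2c among them), and reads in such stretches are uncertain because the strand setting of the counting is not given. The irradiated cells were a model of stress-induced premature senescence, and passage 8 was a later point of serial culture.

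A dividing cell makes most of these transcripts late in the cycle and lets them fall again after division. In G1 and in arrested cells the DREAM complex, assembled with p130 or p107, holds their promoters silent. In G2 the MuvB core of that complex joins B-MYB and then FOXM1 and switches the same promoters on. Binding goes through the cell cycle genes homology region (CHR), a short element near the start site that often follows CCAAT boxes bound by NF-Y. The products then act in order: cyclin B with CDK1 drives entry, Aurora and Polo-like kinases build the spindle, kinetochores hold chromosomes to it, the checkpoint waits, and the anaphase-promoting complex with CDC20 starts separation. Lung fibroblasts in culture divide for a limited number of passages, and mitotic transcripts are a common readout of how much a culture divides.

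To show where such elements lie, the promoters of 8 members are given, taken from RefSeq on GRCm38.p6. They were chosen to show the kinds of match present, 6 with a CHR, Ccnb1 with CCAAT boxes alone and Pttg1 with neither in the stretch shown. The Pttg1 stretch lies inside the span annotated for that gene (chr11:43420250-43426251, minus strand). It therefore does not describe the letters before that annotated start. The stretches of Ccnb1, Cdk1, Cdc20 and Ube2c lie in part inside the spans annotated for those genes. Each is a 120-base stretch of the RefSeq promoter window, read 5′ to 3′ on the strand of the gene. Capitals mark a CHR match (TTTGAA or TTCGAA, or TTCAAA on the other strand) or a CCAAT box (CCAAT, or ATTGG on the other strand).
Top2a, chr11:99024190-99024309, minus strand: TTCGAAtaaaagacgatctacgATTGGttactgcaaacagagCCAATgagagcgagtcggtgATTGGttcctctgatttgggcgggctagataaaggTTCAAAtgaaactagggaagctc
Cdk1, chr10:69352913-69353032, minus strand: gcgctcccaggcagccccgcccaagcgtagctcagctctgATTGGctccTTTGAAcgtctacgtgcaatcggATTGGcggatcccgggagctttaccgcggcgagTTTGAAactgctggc
Mki67, chr7:135716380-135716499, minus strand: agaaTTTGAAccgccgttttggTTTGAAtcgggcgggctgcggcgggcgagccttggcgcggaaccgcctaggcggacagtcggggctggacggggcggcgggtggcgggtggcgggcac
Cdc20, chr4:118437344-118437463, minus strand: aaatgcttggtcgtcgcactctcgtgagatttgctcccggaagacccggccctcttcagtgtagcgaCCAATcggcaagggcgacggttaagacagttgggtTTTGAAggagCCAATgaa
Ube2c, chr2:164769809-164769928, plus strand: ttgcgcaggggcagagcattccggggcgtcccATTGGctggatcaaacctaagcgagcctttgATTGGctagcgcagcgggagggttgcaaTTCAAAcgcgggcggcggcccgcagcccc
Kif11, chr19:37376262-37376381, plus strand: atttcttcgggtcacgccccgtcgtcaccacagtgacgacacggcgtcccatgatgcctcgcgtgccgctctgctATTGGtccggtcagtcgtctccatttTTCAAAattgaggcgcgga
Ccnb1, chr13:100786487-100786606, minus strand: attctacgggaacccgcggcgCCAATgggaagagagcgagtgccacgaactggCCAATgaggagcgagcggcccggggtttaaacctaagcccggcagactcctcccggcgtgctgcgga
Pttg1, chr11:43425982-43426101, minus strand: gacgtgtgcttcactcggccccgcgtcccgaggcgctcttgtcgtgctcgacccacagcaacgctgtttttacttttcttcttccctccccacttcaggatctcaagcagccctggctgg
In Top2a, which encodes the topoisomerase that untangles sister chromatids, a CHR match began 23 bases before the start site, after 3 CCAAT boxes. In Cdc20, the activator of the anaphase-promoting complex, a CHR match began 18 bases before the start. In Kif11, the motor that pushes spindle poles apart, a CHR match began 19 bases before the start. In Ube2c, the ubiquitin-conjugating enzyme of the anaphase-promoting complex, a CHR match began 29 bases before the start. These distances are from the RefSeq start, and the Ube2c match lies inside the span annotated for that gene.

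Promoter windows from 250 bases before to 50 bases after the start were present for 47 of the 57 members. A CHR was found in 35 of 47 (74.5%), against 21.7% of all 27025 mouse genes with windows of the same length. A gene with several windows counts once, as holding the motif where any of them does. A CCAAT box was also found in 35 of 47 (74.5%), against 41.1% of all genes, and both in 30 (63.8%), against 8.61% of all. Both were searched on both strands, and the T that ends CCAAT can also open a CHR, so that a letter may be counted in both. Of 45 CHR matches, 35 began between 60 bases before and 49 bases after the start. A match seen from more than 1 window of a gene was counted once, at the nearest start. The share of matches in this stretch over all genes is not given, so the position is not read as particular to the members. A CCAAT box that began 30 to 36 bases before a CHR was present in 8 members (17.0%), against 0.429% of all genes; this spacing was chosen after the positions were seen. A match describes letters in a window and does not show binding.

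**Figure D1:**
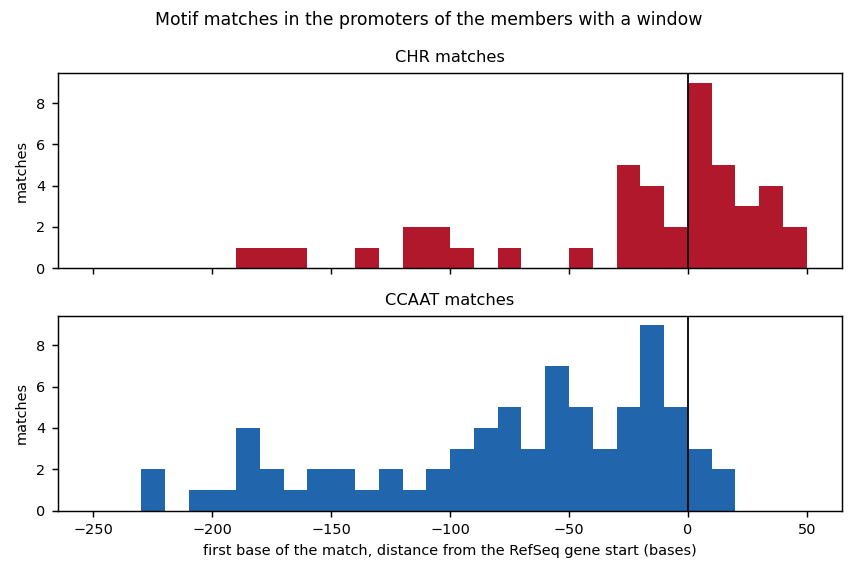
Positions of CHR matches (top) and CCAAT matches (bottom) in the promoter windows of 47 members, as the number of matches per 10-base bin by distance from the RefSeq gene start in bases. The 35 CHR matches from 60 bases before the start onward form the peak at the right of the upper panel, and the CCAAT matches lie mostly upstream of it.

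The libraries held 13.6 to 39.2 M counts over all genes. The members together held 6610 to 41362 counts per library, and their levels are given as CPM (counts per M counts, scaled by the TMM method). Within groups, replicates correlated at 0.931 to 0.997 over log2 CPM. A pair of libraries stood apart. Replicate 3 of Atm+/+ at passage 2 had counts for 17526 genes and replicate 3 of Atm-/- at passage 8 for 15037, against 21389 or more in the other 13. In the second of these, 16 members had a count of 0, in the first 1 member, and in the other 13 libraries none. Each main count below is therefore given from 15 and from 13 libraries, a setting chosen after the data were seen. Atm itself had 0.873 to 3.10 CPM over the libraries without separating the genotypes, and since the deleted part of the gene is not given it checks nothing. None of the 10 fibroblast markers was at 0 in any library. They summed to 11918.3 to 17342.1 CPM in Atm-/- cells at passage 8, against 26918.8 to 43519.7 CPM over the other groups. The 6 lymphocyte markers summed to at most 1.11 CPM. Markers of macrophages, endothelium and epithelium changed with the groups. The 13 macrophage markers summed to 1302.7 to 2367.6 CPM in irradiated cells, 35.2 to 57.5 in Atm-/- and 64.2 to 98.7 in Atm+/+ cells at passage 8, and 940.9 to 1546.2 in Atm-/- and 2112.9 to 3693.4 in Atm+/+ cells at passage 2. The 7 endothelial markers summed to 72.3 to 220.8 CPM in irradiated cells, 7.80 to 29.7 in Atm-/- and 2.53 to 3.49 in Atm+/+ cells at passage 8, and 278.6 to 453.3 in Atm-/- and 361.0 to 726.0 in Atm+/+ cells at passage 2. The 9 epithelial markers summed to 3.72 to 4.25 CPM in irradiated cells, 17.6 to 51.6 in Atm-/- cells at passage 8, a mean of 8.62 ± 0.904 (SD, n = 3) in Atm+/+ cells at passage 8, and 8.89 to 11.3 in Atm-/- and 6.64 to 21.0 in Atm+/+ cells at passage 2. Of the 7 epithelial markers tested, 2 were called lower and 1 higher at passage 8 in Atm-/- cells, and 5 lower and 1 higher in Atm+/+ cells. All 13 macrophage and all 7 endothelial markers were called lower at passage 8 in both genotypes, and Ptprc and Adgre1 were at 0 in all Atm-/- libraries at passage 8. The part of these cells in the results below was not tested.

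Summed over the 57 members, irradiated cells had 328.0, 347.2 and 358.5 CPM. Atm-/- cells at passage 8 had 845.2, 635.3 and 579.5 CPM and Atm+/+ cells at passage 8 had 644.6, 728.4 and 799.5 CPM. Atm-/- cells at passage 2 had 1110.2, 990.6 and 1085.3 CPM and Atm+/+ cells at passage 2 had 951.1, 1133.1 and 745.0 CPM. The 3 irradiated libraries were thus the lowest of the 15 by CPM. By summed TPM (transcripts per M, scaled by gene length) they had 204.9, 225.6 and 227.3, and replicate 3 of Atm-/- at passage 8 was as low at 204.9. In CPM, the 2 genotypes overlapped at either passage. The mean of the irradiated libraries was 36.5% of that in Atm+/+ cells at passage 2 and 47.6% of that at passage 8. Passage 8 stood at 64.7% of passage 2 in Atm-/- cells and at 76.8% in Atm+/+ cells. By summed TPM the irradiated libraries stood at 48.7% of passage 2 and 57.4% of passage 8. In these bulk libraries, fewer dividing cells and less of the RNA in each cell cannot be told apart.

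Compared per length, in TPM, the members spanned a wide range of levels. In Atm+/+ cells at passage 2, Pttg1, the securin that holds separase inactive, was the highest member at a mean of 48.4 TPM, followed by Cdc20 at 24.2 and the checkpoint protein Bub3 at 23.8. Without replicate 3, Pttg1 (52.4 TPM) was followed by Bub3 at 29.4 and Ccnb2 at 28.0, with Cdc20 at 25.1. The lowest was Knl1, a scaffold of the kinetochore, at 0.321 TPM. In irradiated cells Pttg1 averaged 44.7 TPM and Bub3 30.5 TPM, and the next were Ckap2, a microtubule-associated protein, at 15.3 and Incenp, the scaffold of the chromosomal passenger complex, at 10.9 TPM.

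**Figure D2:**
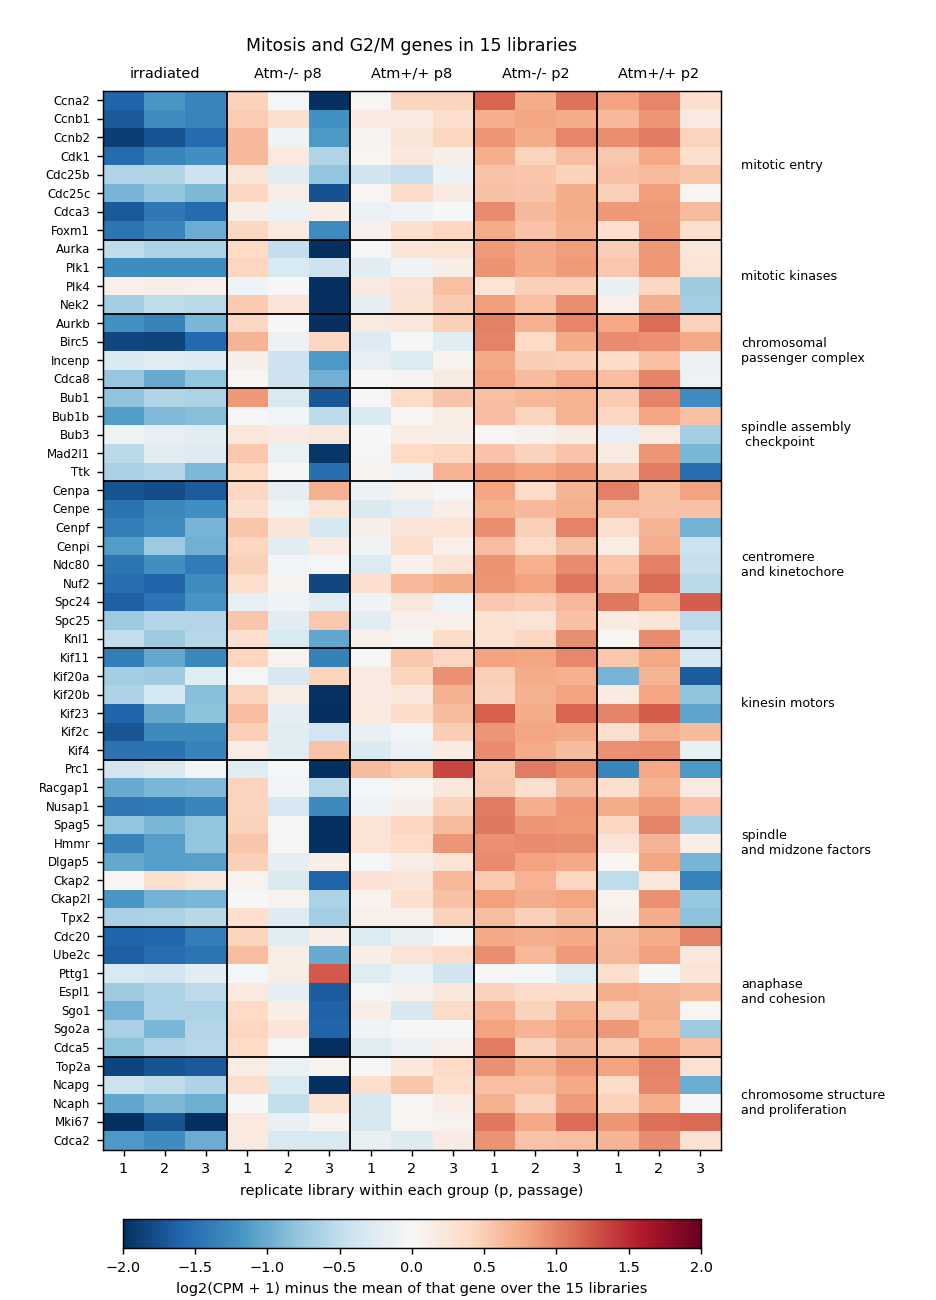
Level of the 57 members (rows, grouped by role) in the 15 libraries (columns, grouped as irradiated, passage 8 and passage 2), as log2(CPM + 1) minus the mean of that gene over the libraries, with colours ending at 2 either side of 0. The 3 irradiated libraries lie below all Atm+/+ libraries of passage 8 for 53 members and below all those of passage 2 for 42. Replicate 3 of Atm-/- at passage 8 lies below the irradiated libraries for some members, and its isolated blue cells include the 16 members with a count of 0.

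Irradiation against Atm+/+ cells at passage 2 gave the widest change in the set. In the fit of 15 libraries (edgeR quasi-likelihood test, p adjusted by Benjamini and Hochberg over all 18167 genes tested, threshold 0.05), 34 members fell and none rose, where 16.5% of all genes were called lower and 11.0% higher. The median log2 fold change of the members was -1.85, against -0.01 over all genes. By fold, 46 members were at least 2-fold lower and 25 at least 4-fold lower. Without the libraries that stood apart, 52 fell and none rose (23.3% of all genes called lower), with a median of -2.09. All 3 irradiated libraries lay below all 3 passage 2 libraries for 42 members, where 27.7% of all genes did. Of the marker lists, 1 of 13 macrophage, 5 of 7 endothelial, 5 of 7 epithelial and 1 of 10 fibroblast markers were called lower in the same comparison, and the endothelial and epithelial sums did not overlap between the groups.

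Mki67, the nuclear antigen used to mark cycling cells, had 4.78, 7.06 and 5.67 CPM in irradiated cells, against 48.3, 56.2 and 57.6 CPM in Atm+/+ cells at passage 2. The groups were far apart, and Mki67 fell 9.24-fold (log2 fold change -3.21, SE 0.19, edgeR adjusted p = 8.22e-07). Top2a had 11.5, 12.4 and 12.8 CPM in irradiated cells, against 76.9, 87.0 and 53.7 CPM at passage 2. It fell 5.93-fold (log2 fold change -2.57, SE 0.18, edgeR adjusted p = 2.93e-06), with no overlap. The condensin subunit gene Ncaph fell by 1.58 in log2 units (SE 0.26, edgeR adjusted p = 0.00118) and Cdca2, which brings protein phosphatase 1 to chromatin, by 2.24 (SE 0.28, edgeR adjusted p = 0.000171). In the group of chromosome structure and proliferation genes 4 of 5 fell.

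All 8 mitotic entry genes fell. Cdk1, the kinase of mitotic entry, had 13.3, 15.9 and 16.8 CPM in irradiated cells, against 59.8, 70.7 and 51.4 CPM in Atm+/+ cells at passage 2. Its fold change was -1.99 in log2 units (SE 0.25, edgeR adjusted p = 0.000192). Ccnb1, its cyclin partner, had 0.8, 1.44 and 1.31 CPM in irradiated cells, against 8.04, 9.64 and 5.56 CPM at passage 2 (log2 fold change -2.71, SE 0.46, edgeR adjusted p = 0.0013). Foxm1, the transcription factor of the G2 programme, had 2.53, 2.95 and 3.88 CPM in irradiated cells, against 11.3, 16.8 and 11.2 CPM at passage 2 (log2 fold change -2.07, SE 0.38, edgeR adjusted p = 0.00225). None of these 3 genes overlapped between the groups. Cdca3, an adaptor for the degradation of the CDK1 inhibitor kinase Wee1, had one of the lowest p-values of the set. It had 4.57, 5.64 and 5.17 CPM in irradiated cells, against 31.7, 31.3 and 26.8 CPM at passage 2 (log2 fold change -2.55, SE 0.15, edgeR adjusted p = 8.22e-07).

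**Figure D3:**
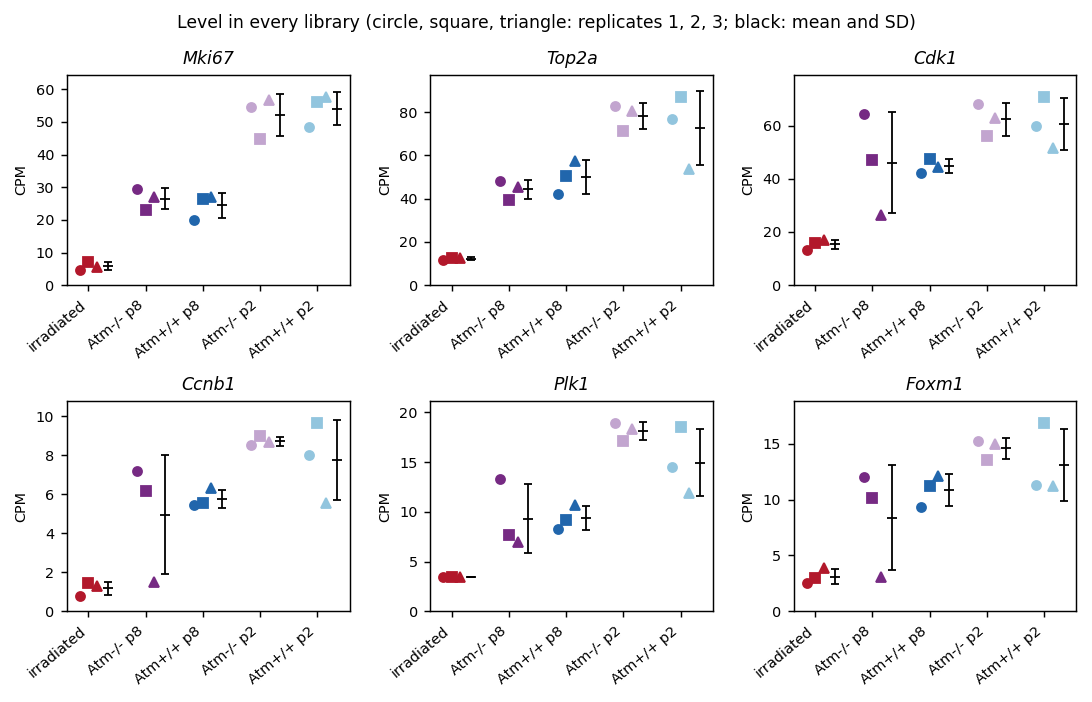
CPM of Mki67, Top2a, Cdk1, Ccnb1, Plk1 and Foxm1 in every library of the 5 groups, with the mean and SD of each group in black. All 6 genes have their lowest mean in irradiated cells; replicate 3 of Atm-/- at passage 8 comes near them with 1.49 CPM of Ccnb1 and lies among them with 3.07 CPM of Foxm1.

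Among the mitotic kinases, Plk1, which acts from centrosome maturation to cytokinesis, had 3.51, 3.47 and 3.44 CPM in irradiated cells, against 14.5, 18.5 and 11.9 CPM in Atm+/+ cells at passage 2. The irradiated values were nearly equal and the groups did not overlap (log2 fold change -2.11, SE 0.25, edgeR adjusted p = 0.00014). The other 3 kinases were not called in 15 libraries. Aurka, the centrosomal Aurora kinase, had a log2 fold change of -1.25 ± 0.53 (SE) and an edgeR adjusted p of 0.0925, and it passed in 13 libraries (edgeR adjusted p = 0.000325). Plk4, which sets centriole number, had 3.54, 3.59 and 3.55 CPM in irradiated cells, against 2.82, 4.74 and 1.60 CPM at passage 2, so the groups overlapped. In 13 libraries 3 of the 4 kinases were lower, Plk4 being the exception.

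Of the chromosomal passenger complex, which corrects faulty attachments and then guides cytokinesis, 3 of 4 members fell. Birc5 (survivin) had 3.74, 3.63 and 4.72 CPM in irradiated cells, against 31.2, 30.6 and 27.7 CPM at passage 2 (log2 fold change -2.89, SE 0.23, edgeR adjusted p = 7.28e-06). Cdca8 (borealin) fell by 1.55 in log2 units (SE 0.29, edgeR adjusted p = 0.00243). Incenp had 17.8, 18.3 and 18.2 CPM in irradiated cells, against 28.6, 33.9 and 20.1 CPM at passage 2, with a log2 fold change of -0.60 ± 0.27 (SE) and an edgeR adjusted p of 0.11. All irradiated libraries lay below those of passage 2 for Incenp, though by less than for its partners, and in 13 libraries all 4 genes fell.

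Of 9 centromere and kinetochore genes 7 fell, and all 9 in 13 libraries. Cenpa, the histone H3 variant that marks centromeres, had 5.09, 4.89 and 5.39 CPM in irradiated cells, against 39.4, 29.6 and 34.3 CPM at passage 2 (log2 fold change -2.75, SE 0.22, edgeR adjusted p = 7.28e-06). Spc24, a subunit of the NDC80 complex that grips microtubules, had 1.27, 1.53 and 2.10 CPM in irradiated cells, against 13.6, 10.9 and 15.3 CPM at passage 2. Spc24 fell 8.13-fold (log2 fold change -3.02, SE 0.25, edgeR adjusted p = 7.38e-06), while its binding partner Spc25 had a log2 fold change of -0.74 (edgeR adjusted p = 0.0608). Spc25 had 4.98, 5.55 and 5.56 CPM in irradiated cells, against 10.1, 10.9 and 5.85 CPM at passage 2.

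Of the spindle assembly checkpoint, which delays anaphase until every chromosome is attached, 1 of 5 members fell in 15 libraries and 4 of 5 in 13. Bub1b (BubR1) fell by 1.73 in log2 units (SE 0.21, edgeR adjusted p = 0.000161). Bub3, its binding partner, had 66.4, 63.9 and 60.7 CPM in irradiated cells, against 63.6, 81.4 and 44.2 CPM at passage 2. The Bub3 groups overlapped, with a log2 fold change of 0.01 ± 0.17 (SE) and an edgeR adjusted p of 0.962; the fold change was -0.14 in 13 libraries. Mad2l1, the checkpoint protein that captures CDC20, had a log2 fold change of -0.62 (edgeR adjusted p = 0.409). Ttk, the kinase that starts the checkpoint, had 0.826, 0.897 and 0.531 CPM in irradiated cells, against 3.01, 4.88 and 0 CPM at passage 2, the last in the library that stood apart.

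Among kinesin motors 3 of 6 fell and 5 of 6 in 13 libraries. Kif2c, which takes microtubules apart at centromeres, fell by 2.32 in log2 units (SE 0.29, edgeR adjusted p = 0.000192), and the chromokinesin gene Kif4 by 2.48 (SE 0.32, edgeR adjusted p = 0.000219). Kif20a, a motor of cytokinesis, had 3.36, 3.28 and 4.92 CPM in irradiated cells, against 2.70, 10.2 and 1.21 CPM at passage 2, a spread among the passage 2 libraries wider than the gap. Of 9 spindle and midzone factors 4 fell and 7 in 13 libraries. Nusap1, which bundles spindle microtubules, fell by 2.59 (SE 0.39, edgeR adjusted p = 0.000673), and Racgap1, which builds the central spindle, by 1.45 (SE 0.24, edgeR adjusted p = 0.00108).

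Of 7 anaphase and cohesion genes 3 fell, and all 7 in 13 libraries. Cdc20 had 4.93, 5.05 and 5.92 CPM in irradiated cells, against 26.9, 29.0 and 34.8 CPM at passage 2 (log2 fold change -2.51, SE 0.19, edgeR adjusted p = 4.03e-06). Ube2c had 4.60, 5.03 and 5.28 CPM in irradiated cells, against 26.2, 29.5 and 19.0 CPM at passage 2 (log2 fold change -2.33, SE 0.33, edgeR adjusted p = 0.000403). Both genes, which act on the same ubiquitin ligase, were clear of overlap. Pttg1, the securin that this ligase destroys, had 39.0, 36.7 and 41.0 CPM in irradiated cells, against 61.7, 48.8 and 59.0 CPM at passage 2. Its groups did not overlap, but its log2 fold change of -0.54 (SE 0.26) missed the threshold in 15 libraries (edgeR adjusted p = 0.135), and it passed at -0.46 in 13 (edgeR adjusted p = 0.00799).

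The 5 members that were not called lower in either fit were Plk4, Bub3, Kif20a, Prc1 and Ckap2, named after their values were seen. Prc1, which crosslinks the central spindle, had 2.92, 3.21 and 3.97 CPM in irradiated cells, against 1.09, 7.81 and 1.31 CPM at passage 2. Ckap2 had 18.1, 22.8 and 20.8 CPM in irradiated cells, against 12.1, 20.5 and 6.38 CPM at passage 2, with a log2 fold change of 0.66 ± 0.41 (SE) and an edgeR adjusted p of 0.239. Ckap2 was the member with the highest fold change in this comparison and was called higher when replicate 2 of Atm+/+ at passage 2 was left out (edgeR adjusted p = 0.0364). All 22 named members past the threshold passed also when any single library was left out. On the TPM scale (limma), Cdca8 and Racgap1 lost the call in all 3 fits.

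By promoter, the 35 members with a CHR had a median log2 fold change of -1.82 and the 12 with a promoter window but no CHR a median of -1.74. Mki67 and Ccnb1, with and without a match in the sequences above, both fell. The 12 without a CHR include Pttg1, whose stretch above lies inside its annotated span, and Ccnb1, whose stretch lies in part inside its own. These values describe the members.

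**Figure D4:**
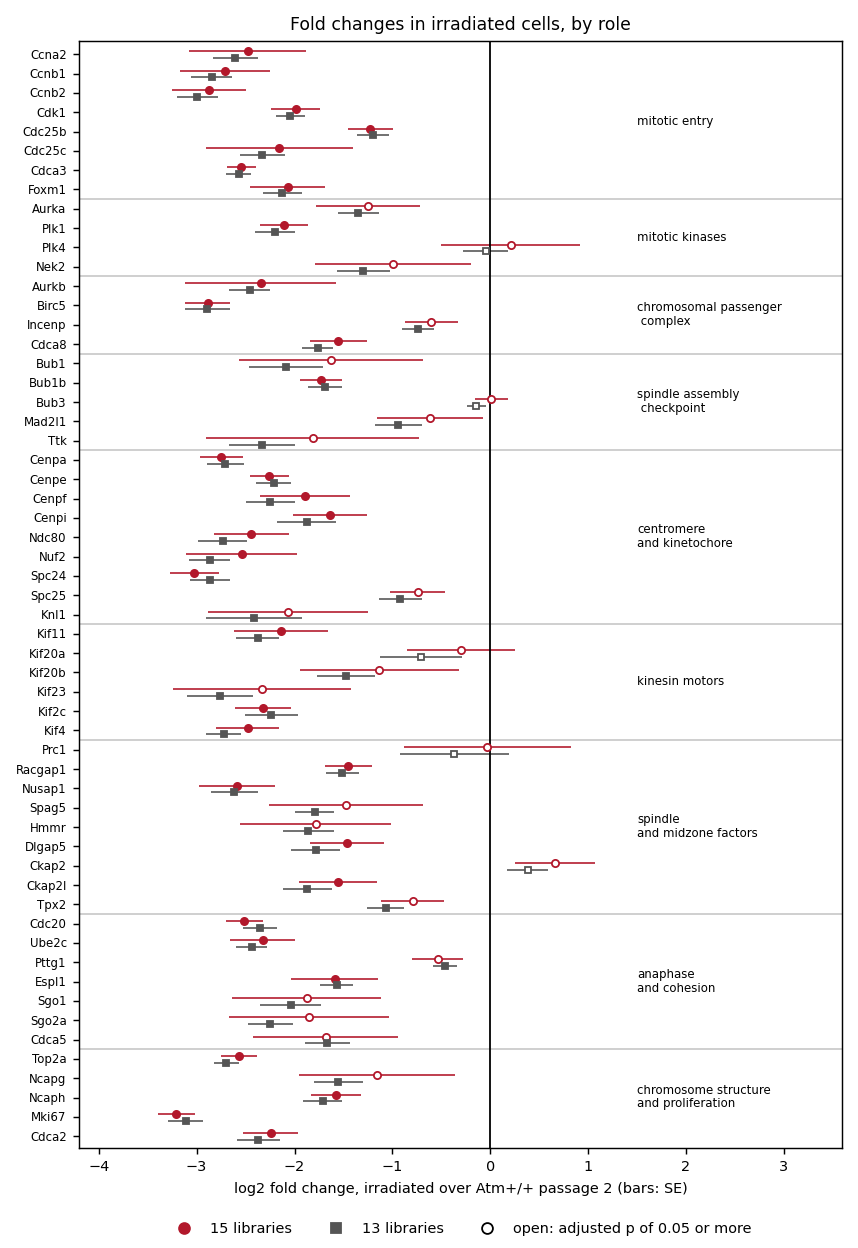
Log2 fold change of each member in irradiated cells over Atm+/+ cells at passage 2, by role, with SE bars, from 15 libraries (red circles) and 13 libraries (grey squares). Filled points are below an adjusted p of 0.05; the open grey squares near 0 are Plk4, Bub3, Kif20a, Prc1 and Ckap2.

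Irradiated cells were also lower than Atm+/+ cells that had reached passage 8. There 29 members fell and none rose, where 2.59% of all genes were called lower and 4.30% higher, with a median log2 fold change of -1.52 against -0.01 over all genes. In 13 libraries 50 fell (12.3% of all genes called lower), with a median of -1.50. By fold, 45 members were at least 2-fold lower and 8 at least 4-fold. Irradiated libraries lay wholly below passage 8 libraries for 53 members, where 25.6% of all genes did. The 2 irradiation comparisons share the irradiated libraries, so their values stand side by side. The count of 29 was 18 without replicate 1 of the irradiated group and 19 without replicate 2. In this comparison 12 of 13 macrophage and all 7 endothelial markers were higher in irradiated cells, and their part was not tested.

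For Mki67, the irradiated values of 4.78 to 7.06 CPM stood against 20.1, 26.5 and 27.0 CPM in Atm+/+ cells at passage 8 (log2 fold change -2.07, SE 0.18, edgeR adjusted p = 1.8e-05). Top2a had 11.5 to 12.8 CPM in irradiated cells, against 42.2, 50.3 and 57.6 CPM at passage 8 (log2 fold change -2.03, SE 0.18, edgeR adjusted p = 1.8e-05). Mki67 was 4.20-fold and Top2a 4.09-fold lower, without overlap. Cdk1, at 13.3 to 16.8 CPM in irradiated cells, stood against 42.1, 47.5 and 44.5 CPM at passage 8 (log2 fold change -1.55, edgeR adjusted p = 0.00143). Plk1, at 3.44 to 3.51 CPM in irradiated cells, stood against 8.26, 9.16 and 10.7 CPM at passage 8 (log2 fold change -1.43, edgeR adjusted p = 0.00259). Ccnb1 stood at 0.8 to 1.44 CPM in irradiated cells, against 5.48, 5.56 and 6.31 CPM at passage 8 (log2 fold change -2.28, edgeR adjusted p = 0.00616). These 5 calls held with any single library left out, but those of Cdk1, Plk1 and Ccnb1 ended in all 3 fits on the TPM scale (limma). Foxm1 (log2 fold change -1.80, edgeR adjusted p = 0.00952) was not called without replicate 1 or replicate 2 of the irradiated group, nor on the TPM scale.

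By role, 5 of 8 entry genes fell against passage 8, and 7 of 9 kinetochore genes. Cenpa (-1.89, edgeR adjusted p = 0.000116) and Spc24 (-1.92, edgeR adjusted p = 0.000205) had the lowest p-values of the kinetochore group, while Nuf2, another subunit of the NDC80 complex, had a larger fold change (-2.56, edgeR adjusted p = 0.0133) and was not called without replicate 1 or replicate 2 of the irradiated group, when blocked by replicate number (edgeR adjusted p = 0.0516) or on the TPM scale. In the chromosomal passenger complex 2 of 4 fell, Birc5 with a log2 fold change of -1.79 (edgeR adjusted p = 0.000205) and Cdca8 with -1.02 (edgeR adjusted p = 0.049). Cdca8 did not pass when blocked by replicate number (edgeR adjusted p = 0.106), on the TPM scale, with no filter, or in 11 of the 15 fits that left out 1 library. Of the anaphase genes 2 of 7 fell, Cdc20 (-1.52, edgeR adjusted p = 0.000156) and Ube2c (-1.99, edgeR adjusted p = 0.00155). Members near their passage 8 level included Cdc25b, Pttg1 and Bub3, named after their values were seen. Incenp (log2 fold change -0.15) and Ckap2 (-0.21) were nearer to it than Cdc25b and Bub3. Cdc25b, a phosphatase that activates CDK1, had 7.36, 7.41 and 8.61 CPM in irradiated cells, against 8.67, 8.21 and 10.7 CPM at passage 8 (log2 fold change -0.24, edgeR adjusted p = 0.742). Pttg1 had 39.0, 36.7 and 41.0 CPM in irradiated cells, against 40.6, 44.1 and 36.5 CPM at passage 8 (log2 fold change -0.05, edgeR adjusted p = 0.982). Bub3 had 66.4, 63.9 and 60.7 CPM in irradiated cells, against 71.8, 79.1 and 77.3 CPM at passage 8 (log2 fold change -0.26, edgeR adjusted p = 0.521). All irradiated libraries lay below all passage 8 libraries for Bub3, while the groups overlapped for Cdc25b and Pttg1. A p above the threshold does not show that these levels were equal.

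Passage 8 against passage 2 gave a smaller change in either genotype. In Atm-/- cells 12 members fell and none rose, where 8.25% of all genes were called lower and 4.76% higher, and the median log2 fold change was -0.89 against -0.08 over all genes. In Atm+/+ cells 11 fell and none rose, where 13.5% of all genes were called lower and 9.80% higher, and the median was -0.42 against 0.00 over all genes. In 13 libraries 23 fell in Atm-/- cells (14.4% of all genes called lower), with a median of -0.65. In Atm+/+ cells 30 fell and 1 rose (20.3% of all genes called lower and 19.8% higher), with a median of -0.59. The 1 that rose was among the spindle and midzone factors. Without 1 library, the count in Atm-/- cells was 3 to 16, with 3 to 5 when any passage 2 library of that genotype was left out, 6 without replicate 2 of passage 8 and 7 without replicate 2 of the irradiated group. The count in Atm+/+ cells was 7 to 16, with 7 without replicate 1 or replicate 2 of passage 8. All passage 8 libraries lay below those of passage 2 for 45 members in Atm-/- cells (22.5% of all genes) and 17 in Atm+/+ cells (22.6% of all genes).

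The members called in both genotypes numbered 8, which is 66.7% of the 12 in Atm-/- cells and 72.7% of the 11 in Atm+/+ cells. They were Mki67, Top2a, Cdca2, Cdca3, Cdc25b, Bub1b, Spc24 and Cdc20. In 13 libraries the shared members numbered 17, 73.9% of 23 and 56.7% of 30. The share of all genes called lower in both genotypes is not given, so these counts do not show an overlap particular to the members. Mki67 had 29.6, 23.1 and 26.9 CPM at passage 8 in Atm-/- cells, against 54.7, 44.9 and 56.8 CPM at passage 2 (log2 fold change -0.97, SE 0.18, edgeR adjusted p = 0.00209). The Atm+/+ cells had 20.1, 26.5 and 27.0 CPM at passage 8, against 48.3, 56.2 and 57.6 CPM at passage 2 (log2 fold change -1.14, SE 0.18, edgeR adjusted p = 0.000462). The passage 8 libraries lay wholly below those of passage 2 in both genotypes.

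Cdca3 had 18.3, 15.5 and 18.5 CPM at passage 8 in Atm-/- cells, against 33.3, 27.1 and 28.9 CPM at passage 2 (log2 fold change -0.77, SE 0.15, edgeR adjusted p = 0.00275). Its levels in Atm+/+ cells were 15.4, 16.0 and 17.0 CPM at passage 8, against 31.7, 31.3 and 26.8 CPM at passage 2 (log2 fold change -0.89, SE 0.15, edgeR adjusted p = 0.000671). The groups were separate in both genotypes. Top2a had 48.2, 39.5 and 45.3 CPM at passage 8 in Atm-/- cells, against 82.7, 71.5 and 80.4 CPM at passage 2 (log2 fold change -0.82, SE 0.17, edgeR adjusted p = 0.0059). In Atm+/+ cells it had 42.2, 50.3 and 57.6 CPM at passage 8, against 76.9, 87.0 and 53.7 CPM at passage 2. There the groups overlapped (log2 fold change -0.54, SE 0.17, edgeR adjusted p = 0.0379, and 0.0783 when blocked by replicate number). The overlap came from replicate 3 of passage 2, a library that stood apart. Top2a was also called lower in both genotypes in 13 libraries. In Atm-/- cells Mki67, Cdca3 and Top2a were the only calls that held with any single library left out; in Atm+/+ cells Mki67, Cdca3, Cdc20, Birc5, Spc24, Cdc25b and Cenpa did, of which Cdc25b ended in all 3 fits on the TPM scale, Cdca3 in 2, and Birc5 and Cenpa in 1. Cdca8 in Atm-/- cells (log2 fold change -1.21, edgeR adjusted p = 0.0129) was not called without replicate 3 of passage 2, and Bub1b (-0.82, edgeR adjusted p = 0.0174) not without replicate 1 or replicate 3 of passage 2. In Atm+/+ cells Cenpe, a kinetochore motor (-0.77, edgeR adjusted p = 0.0124), was not called without replicate 1 or replicate 2 of passage 8, and Bub1b, Cdca2 and Top2a each lost the call in 11 or more of the 15 fits that left out 1 library. Blocked by replicate number, Cdca2 had an edgeR adjusted p of 0.0737 in Atm-/- cells and 0.0752 in Atm+/+ cells. Spc24 had an edgeR adjusted p of 0.086 in Atm-/- cells under this block.

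Of the genes at the core of mitotic entry, Cdk1, Foxm1 and Ccnb1 were called in neither genotype in 15 libraries. In 13 libraries Cdk1 and Ccnb1 were called lower in Atm+/+ cells alone, Plk1 in both genotypes and Foxm1 in neither. The values that follow are from 15 libraries. Cdk1 had 64.5, 47.0 and 26.5 CPM at passage 8 in Atm-/- cells, against 68.2, 56.0 and 62.8 CPM at passage 2 (log2 fold change -0.43, edgeR adjusted p = 0.265). Cdk1 in Atm+/+ cells had 42.1, 47.5 and 44.5 CPM at passage 8, against 59.8, 70.7 and 51.4 CPM at passage 2 (log2 fold change -0.44, edgeR adjusted p = 0.196). Foxm1 had 12.0, 10.1 and 3.07 CPM at passage 8 in Atm-/- cells, against 15.2, 13.5 and 15.0 CPM at passage 2 (log2 fold change -0.77, edgeR adjusted p = 0.19), and in Atm+/+ cells 9.33, 11.2 and 12.1 CPM at passage 8, against 11.3, 16.8 and 11.2 CPM at passage 2 (log2 fold change -0.27, edgeR adjusted p = 0.614). Ccnb1 had 7.22, 6.20 and 1.49 CPM at passage 8 in Atm-/- cells, against 8.53, 8.97 and 8.67 CPM at passage 2 (log2 fold change -0.79, edgeR adjusted p = 0.249). The low value of replicate 3 in Atm-/- cells at passage 8 was in the library with 16 members at 0. In Atm+/+ cells Ccnb1 had 5.48, 5.56 and 6.31 CPM at passage 8, against 8.04, 9.64 and 5.56 CPM at passage 2 (log2 fold change -0.42, edgeR adjusted p = 0.481). Plk1 was called in Atm-/- cells (-0.94, edgeR adjusted p = 0.02), where it had 13.3, 7.67 and 7.01 CPM at passage 8, against 18.9, 17.1 and 18.3 CPM at passage 2. Plk1 in Atm+/+ cells had 8.26, 9.16 and 10.7 CPM at passage 8, against 14.5, 18.5 and 11.9 CPM at passage 2 (-0.68, edgeR adjusted p = 0.0602).

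**Figure D5:**
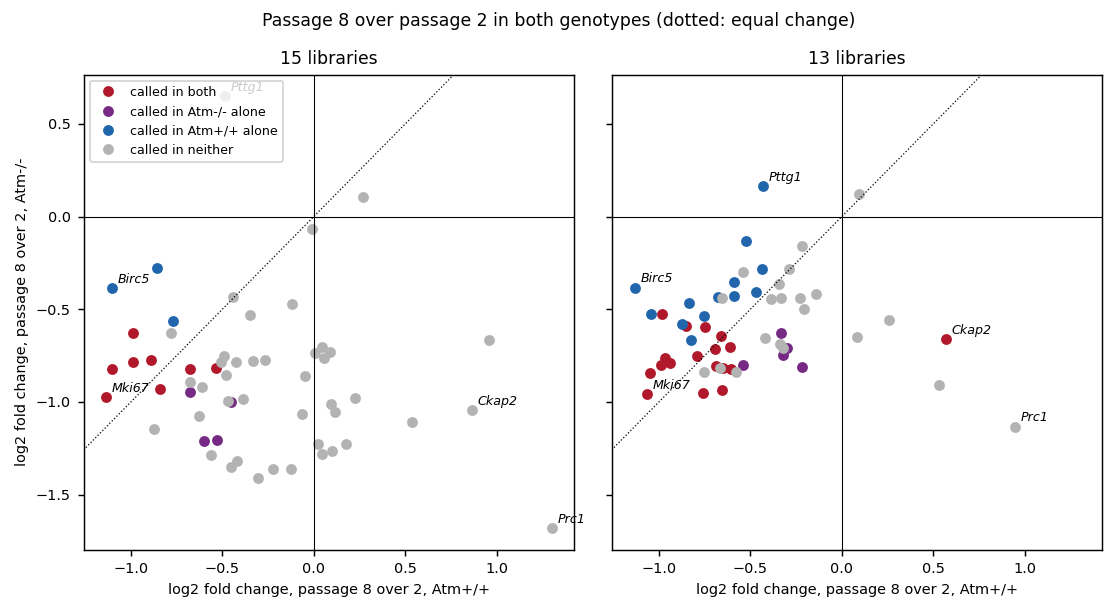
Log2 fold change of each member at passage 8 over passage 2 in Atm-/- cells (vertical) and Atm+/+ cells (horizontal), from 15 libraries (left) and 13 libraries (right), coloured by the genotype in which the member passed an adjusted p of 0.05, in either direction. Most points lie below 0 on both axes, and Pttg1, Ckap2 and Prc1 lie apart from the cloud.

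At passage 2 no member was called between Atm-/- and Atm+/+ cells, where 0.969% of all genes were called in either direction. The members' median log2 fold change was 0.27 against 0.04 over all genes, 1 member had an unadjusted p under 0.05, and DESeq2 called 0 (4.60% of all genes). In 13 libraries the median was 0.07 and 0 members were called (5.35% of all genes). All Atm-/- libraries lay above all Atm+/+ libraries for 5 members (13.7% of all genes) and below them for 2 (12.1% of all genes). Mki67 had 54.7, 44.9 and 56.8 CPM in Atm-/- cells, against 48.3, 56.2 and 57.6 CPM in Atm+/+ cells, and Cdk1 had 68.2, 56.0 and 62.8 CPM in Atm-/- cells, against 59.8, 70.7 and 51.4 CPM in Atm+/+ cells. Both overlapped throughout.

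At passage 8 no member was called either, where 9.32% of all genes were. The median was -0.27 against -0.08 over all genes, 3 members had an unadjusted p under 0.05, and DESeq2 called 1, Pttg1 (18.8% of all genes). In 13 libraries the median was 0.05, on the other side of 0, and 0 members were called (25.0% of all genes). Atm-/- libraries lay wholly above Atm+/+ libraries for 2 members (16.8% of all genes) and below them for 4 (23.0% of all genes). Pttg1 had 46.9, 53.6 and 115.0 CPM in Atm-/- cells, against 40.6, 44.1 and 36.5 CPM in Atm+/+ cells (log2 fold change 0.83, SE 0.26, edgeR adjusted p = 0.0618). The highest of these values was in the library that stood apart. Birc5 had 25.8, 14.5 and 21.3 CPM in Atm-/- cells, against 13.1, 15.3 and 13.4 CPM in Atm+/+ cells (log2 fold change 0.56, SE 0.21, edgeR adjusted p = 0.106). Mki67 had 29.6, 23.1 and 26.9 CPM in Atm-/- cells, against 20.1, 26.5 and 27.0 CPM in Atm+/+ cells, again with overlap.

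The passage effect itself was compared between the genotypes as a difference of the log2 fold changes, Atm-/- minus Atm+/+. No member passed, where 4.43% of all genes did in either direction. The median difference was -0.50 against -0.14 over all genes, 4 members had an unadjusted p under 0.05, and DESeq2 called 1 higher and 1 lower (19.8% of all genes in either direction). In 13 libraries the median was -0.02, and Pttg1 was higher and Ckap2 lower (13.8% of all genes called). Pttg1 differed by 1.13 (edgeR adjusted p = 0.0701) in 15 libraries and by 0.59 (edgeR adjusted p = 0.04) in 13. Ckap2 differed by -1.91 (edgeR adjusted p = 0.0628) in 15 libraries and by -1.23 (edgeR adjusted p = 0.0207) in 13. Ckap2 had 18.6, 14.2 and 5.17 CPM at passage 8 in Atm-/- cells, against 25.9, 29.3 and 24.0 CPM at passage 2. In Atm+/+ cells it had 21.9, 21.0 and 28.5 CPM at passage 8, against 12.1, 20.5 and 6.38 CPM at passage 2. In CPM, Ckap2 was thus wholly lower at passage 8 in Atm-/- cells and wholly higher in Atm+/+ cells. The separation in Atm+/+ cells was narrow, at 21.0 CPM against 20.5 CPM. By TPM the Atm-/- groups stayed apart but the Atm+/+ groups overlapped. There replicate 2 of passage 2 lay above replicates 1 and 2 of passage 8.

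Most members varied together across the libraries. As a description over 15 libraries that fall into 5 groups and share their depth, the log2(CPM + 1) of a member correlated with the mean of the other members at a median of 0.851, and at 0.969 in the 13 libraries. Pttg1 was the lowest in 15 libraries at -0.143, followed by Bub3 at 0.322 and Ckap2 at 0.373. In 13 libraries Ckap2 was the lowest at 0.187, with Pttg1 at 0.476 and Bub3 at 0.679. Outside the set, the 10 genes most like the members' mean over 15 libraries were Pimreg (0.976), Gm11223 (0.968), Neil3 (0.966), E2f7 (0.961), Prim1 (0.960), Ercc6l (0.957), Tk1 (0.945), Shcbp1 (0.940), Oip5 (0.937) and Kntc1 (0.932). Pimreg averaged 3.39 CPM in irradiated cells, 9.35 in Atm-/- and 11.8 in Atm+/+ cells at passage 8, and 21.3 in Atm-/- and 18.8 in Atm+/+ cells at passage 2.

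The rest of the mitotic and cell cycle programme was read from other lists. Of 40 further periodic mitotic genes, 18 fell and 1 rose in irradiated cells against Atm+/+ cells at passage 2. In that comparison 16.5% of all genes were called lower and 11.0% higher. In 13 libraries 33 fell and 2 rose, where 23.3% of all genes were called lower. The condensin gene Ncapd2 (log2 fold change -2.01, edgeR adjusted p = 3.34e-06) and the chromokinesin gene Kif22 (-2.18, edgeR adjusted p = 7.38e-06) were among those that fell. Gtse1, which restrains p53 in G2, was the one that rose (1.34, edgeR adjusted p = 0.0167), and it was not called without replicate 3 of Atm+/+ at passage 2 (edgeR adjusted p = 0.0551). Of 31 DNA replication genes 19 fell and none rose, and 24 fell in 13 libraries. They included the helicase subunit gene Mcm6 (-1.86, edgeR adjusted p = 8.05e-05) and Tyms, which makes thymidylate (-1.26). Their summed level in irradiated cells was 52.0% of that in Atm+/+ cells at passage 2, against 70.7% for the further periodic genes and 36.5% for the mitotic members. Of 22 genes of the anaphase-promoting complex and cohesin core 5 fell and 1 rose (5 and 4 in 13 libraries), and their sum stood at 80.5%. Of 20 RB, E2F and DREAM/MuvB regulators 5 fell and 2 rose (5 and 7 in 13 libraries). Mybl2, which encodes B-MYB, fell by 1.34 on the log2 scale and was not called in 2 of the 3 fits on the TPM scale.

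Inhibitors went the other way in part. Of 18 G2/M checkpoint genes and CDK inhibitors, 5 rose and 3 fell in irradiated cells against passage 2. There 11.0% of all genes were called higher and 16.5% lower. In 13 libraries 7 rose and 5 fell, where 23.3% of all genes were called lower and the share called higher is not given. Cdkn1a (p21), the p53 target that inhibits cyclin-dependent kinases, rose by 1.90 on the log2 scale (edgeR adjusted p = 2.93e-06), and Ccng1, another p53 target, by 2.03. Against Atm+/+ cells at passage 8, Cdkn1a rose by 1.29 (edgeR adjusted p = 5.53e-05). Ccng1 rose by 0.84 (edgeR adjusted p = 0.0285, and 0.0649 when blocked by replicate number), a call that ended without any 1 of the irradiated or Atm+/+ passage 8 libraries and on the TPM scale, and Cdkn2a, the locus of p16 and p19, fell by 2.16 (edgeR adjusted p = 0.00571). In the same comparison 9 of the 40 periodic genes fell and none rose, and 5 of the 31 replication genes fell and none rose, where 2.59% of all genes were called lower. In 13 libraries 32 periodic genes fell and 1 rose and 17 replication genes fell, where 12.3% of all genes were called lower.

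With passage, the inhibitor list held calls in both directions. In Atm-/- cells 4 rose and 1 fell, where 4.76% of all genes were called higher and 8.25% lower. In 13 libraries 7 rose and 5 fell there, where 14.4% of all genes were called lower and the share called higher is not given. From 15 libraries, Cdkn2a was higher by 3.78 in Atm-/- cells and Cdkn2b (p15) by 1.90. Plk2, a stress-induced Polo-like kinase, was higher by 0.97 (a call that ended on the TPM scale). In Atm+/+ cells 7 rose and 2 fell, where 9.80% of all genes were called higher and 13.5% lower. In 13 libraries 9 rose and 2 fell there, where 19.8% of all genes were called higher and 20.3% lower. From 15 libraries, Plk2 was higher by 2.08 in Atm+/+ cells, the cyclin G gene Ccng2 by 1.15, Cdkn2b by 0.70 and Cdkn2a by 1.40. The calls of Cdkn2b and Cdkn2a in Atm+/+ cells ended with only the groups compared. They also ended without replicate 1 of passage 2 and without replicate 1 or replicate 3 of passage 8. Of the 31 replication genes 1 fell in Atm-/- cells and 10 in Atm+/+ cells, and of the 40 periodic genes 2 fell in Atm-/- cells and 3 in Atm+/+ cells, where 8.25% of all genes were called lower in Atm-/- and 13.5% in Atm+/+ cells. In 13 libraries 5 replication genes fell in Atm-/- and 21 in Atm+/+ cells, and 8 periodic genes fell in Atm-/- and 9 in Atm+/+ cells, where 14.4% and 20.3% of all genes were called lower. Between the genotypes at passage 8, 4 of the 31 replication genes were higher in Atm-/- cells and none lower (11 higher in 13 libraries), where 9.32% of all genes were called in either direction (25.0% in 13 libraries).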

How the data were processed

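RNA from 15 libraries of mouse lung fibroblasts (5 groups of 3) was prepared with TruSeq kits, per the labels. The authors deposited raw gene counts, obtained with featureCounts on mm10 with SAMtools 1.3.1 per the submitters' processing notes; the aligner and the strand setting are not given in the sources used. The authors also deposited TPM, the same reads scaled by gene length, which served for levels between genes and for alternatives (limma 3.58.1, log2(TPM + 1) or log2(TPM + 0.1), TPM filter of 0.5). Symbols came from GENCODE on GRCm38 for 48058 genes, with 382 unmatched.

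Counts were filtered with filterByExpr by group and normalised by TMM, and 1 quasi-likelihood fit (edgeR 4.0.16, R 4.3.3, robust) held all 15 libraries. Group means were contrasted, with Benjamini-Hochberg adjustment over 18167 genes (18495 with 13 libraries) and a threshold of 0.05. SE is the absolute log2 fold change over the square root of F. The fit was tested on simulated data. Alternatives were DESeq2 1.42.0, its size factors in edgeR, other filters, the compared groups alone, the replicate number as a block, each library left out, and the 13 libraries.

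The members and lists were chosen with earlier results of these data known. Named were Mki67, Top2a, Cdk1, Ccnb1, Plk1 and Foxm1, and up to 2 members per role with the lowest p in a comparison. Also named were members called against the majority in 15 libraries, the 10 most alike genes, up to 4 genes per other list, and Atm. Others are said to be chosen after their values were seen or are given by CPM. Titles number the strains of a genotype at both passages and the design text names 3 strains per genotype, so the numbers were taken to pair passages within a genotype. Their deviations from the group means correlated at -0.08, 0.32 and 0.03 in Atm-/- and at -0.02, -0.28 and -0.36 in Atm+/+ cells. Nothing says that the irradiated strains were the unirradiated ones, though the block gave both the same numbers. Libraries held 13.6 to 39.2 M counts. Figures were drawn with matplotlib 3.10.9.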

Additional observations from a re-analysis of the deposited data

Results flagged for a closer look

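For none of the 57 members did the passage effect differ past the threshold between Atm-/- and Atm+/+ cells. In the other cell cycle lists 5 genes had a passage effect that differed between the genotypes, as a log2 difference of Atm-/- minus Atm+/+ from the same fit (edgeR quasi-likelihood test).

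Cdkn2a differed by 2.38 (edgeR adjusted p = 0.041). It had 238.5, 137.5 and 194.1 CPM at passage 8 in Atm-/- cells, against 19.5, 10.9 and 11.2 CPM at passage 2. In Atm+/+ cells it had 53.1, 37.4 and 52.3 CPM at passage 8, against 15.4, 9.42 and 29.5 CPM at passage 2. It was above its passage 2 libraries in both genotypes, by a wider margin in Atm-/- cells. Cdkn2b differed by 1.19 (edgeR adjusted p = 0.0359, and 0.067 when blocked by replicate number). It averaged 50.8 ± 13.3 CPM at passage 8 and 13.6 ± 0.526 CPM at passage 2 in Atm-/- cells, and in Atm+/+ cells 21.2 ± 2.08 CPM at passage 8 (SD, n = 3 each), against 12.3, 11.1 and 15.6 CPM at passage 2.

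Plk2 differed by -1.12 (edgeR adjusted p = 0.0374, blocked 0.0986), with passage effects of 0.97 in Atm-/- and 2.08 in Atm+/+ cells. Ccng2 differed by -1.08 (edgeR adjusted p = 0.0383, blocked 0.0833), with passage effects of 0.07 and 1.15 in Atm-/- and Atm+/+ cells. Lin37, a subunit of the MuvB core, differed by 0.86 (edgeR adjusted p = 0.0493, blocked 0.111), with passage effects of 0.10 and -0.77 in Atm-/- and Atm+/+ cells. In 13 libraries Cdkn2a differed by 1.83 with an edgeR adjusted p of 0.052, and the other 4 passed. Each of these calls was lost in 11 or 12 of the 15 fits that left out 1 library, and in all 3 fits on the TPM scale (2 for Ccng2).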

How the results depend on the processing

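Main values are from edgeR on 15 libraries. Where the share of all genes called in a fit is not given, a changed count is not read as particular to the members. In 13 libraries the members called lower were 52 (irradiated over Atm+/+ passage 2), 50 (irradiated over Atm+/+ passage 8), 23 (passage in Atm-/-) and 30 (passage in Atm+/+), with 1 called higher in the last. The difference of the passage effects then had 1 higher and 1 lower. DESeq2 called 1 higher between genotypes at passage 8, and 1 higher and 1 lower for the difference. With only the groups compared, 2 fell with passage in Atm-/- cells and 52 in irradiated cells over passage 8, and with no filter 7 fell with passage in Atm-/- cells.

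On the TPM scale the median of all genes, with log2(TPM + 1), was 0.32 in irradiated cells over passage 2, 0.14 over passage 8 and -0.50 for the difference, against -0.01, -0.01 and -0.14 from counts. Relative to that shift members stayed lower after irradiation. Over passage 2 the members' median was -0.90 with log2(TPM + 1), -1.24 with log2(TPM + 0.1) and -0.89 with no filter, and 21 fell under the small pseudocount and with no filter. Over passage 8 the members called lower were 11, 11 and 9 under these settings, with medians of -0.78, -1.21 and -0.77. In Atm+/+ passage 6, 5 and 3 fell. The difference had 1 lower with log2(TPM + 1) and a median of -1.32 with log2(TPM + 0.1). TPM and counts hold the same reads, and the cause of these changes was not tested.

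With 1 library left out, the members called lower ranged from 26 to 45 (median -2.07 to -1.53) in irradiated cells over passage 2, where 0 to 1 were called higher, and from 18 to 39 (median -1.59 to -1.39) over passage 8. They ranged from 3 to 16 (median -1.18 to -0.65, 0 to 1 higher) with passage in Atm-/- cells and from 7 to 16 (median -0.58 to -0.18, 0 to 4 higher) in Atm+/+ cells, with 4 higher without replicate 2 of Atm+/+ at passage 2 and 1 without replicate 3 of Atm-/- at passage 8. Between genotypes, 0 to 5 were called higher at passage 2 (median 0.08 to 0.47, 5 without replicate 2 of Atm+/+) and 0 to 3 at passage 8 (median -0.65 to 0.04, 3 without replicate 2 of Atm-/-). For the difference 0 to 6 were lower and 0 to 3 higher (median -0.93 to -0.21), with 6 lower without replicate 2 of Atm+/+ at passage 2 and 3 higher without replicate 2 of Atm-/- at passage 8.

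With the replicate number as a block, 32 and 24 members fell in irradiated cells over passage 2 and passage 8, 11 with passage in Atm-/- and 9 in Atm+/+ cells. The block changed no call of a named gene other than those given with its value. Signs turned for Bub3 in irradiated cells over passage 2 (-0.14 in 13 libraries, -0.13 to 0.30 with 1 library left out) and for Pttg1 over passage 8 (0.15 in the TPM fits, -0.12 to 0.01 with 1 library left out), none of which passed. Of 134 named gene and comparison pairs, 111 passed, and those that kept their direction and side of the threshold were 133 with DESeq2 size factors or the strict filter, 129 with DESeq2, 123 with the block, 122 in 13 libraries, 121 with no filter, 104 with only the groups compared and 106, 104 and 97 in the TPM fits, where 27, 29 and 36 no longer passed.

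Groups of 3 libraries set the precision, and members with few counts, such as Knl1 and Ttk, carry the widest SE.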
